A study of Mus musculus with 10 samples.

Results

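The 10 genes described here encode the enzymes, matrix proteins, transporters and channels of the melanosome, the pigment organelle of melanocytes. They were taken by symbol (Tyr, Tyrp1, Dct, Pmel, Mlana, Slc45a2, Oca2, Slc24a5, Gpr143 and Trpm1), and all 10 had a row among the 22329 genes of the deposited table. The samples were 10 tumours grown under the skin of C57BL6/J mice from injected cells of B16F10, a mouse melanoma line. Each tumour received 1 injection of 80 µg mRNA and was collected 7 days later. In the 5 control mRNA tumours (libraries 1 to 5) the mRNA encoded luciferase, and in the 5 cytokine mRNA tumours (libraries 6 to 10) it was a mixture of 20 µg each for murine single-chain IL-12, IL-15sushi, GM-CSF and IFNalpha. All tumours therefore came from 1 cell line and all had foreign mRNA injected, and the ages of the mice were not given in the sources used here. Values are TPM, the share of transcripts corrected for length and scaled to 1000000 in each library, so that levels can be compared between genes.

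Melanin is made inside the melanosome from tyrosine, by tyrosinase and the related enzymes Tyrp1 and Dct, on fibrils formed by Pmel. Transporters such as Slc45a2, Oca2 and Slc24a5 set the ion content and acidity that the enzymes need. The transcription factor Mitf, together with Sox10 and Pax3, drives many of these genes. Mitf binds the E-box variant CATGTG in promoters of such genes, the core of the motif named M-box. Several of the proteins, Pmel, Mlana, Tyr, Tyrp1 and Dct among them, are known antigens for T cells in melanoma.

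The promoters of the 3 enzyme genes and of Oca2 are shown because the members moved together between tumours, with Oca2 the lowest against its control median in libraries 1, 6 and 8. Each runs from 250 bases before the transcription start to 50 bases after it, 5′ to 3′ on the gene's strand, with CATGTG on either strand in capitals; the sequences are RefSeq's on build GRCm38.p6. The Tyr window is chr7:87493463-87493762 on the minus strand, the Tyrp1 window chr4:80833963-80834262 on the plus strand, the Dct window chr14:118052197-118052496 on the minus strand and the Oca2 window chr7:56239509-56239808 on the plus strand.
Tyr: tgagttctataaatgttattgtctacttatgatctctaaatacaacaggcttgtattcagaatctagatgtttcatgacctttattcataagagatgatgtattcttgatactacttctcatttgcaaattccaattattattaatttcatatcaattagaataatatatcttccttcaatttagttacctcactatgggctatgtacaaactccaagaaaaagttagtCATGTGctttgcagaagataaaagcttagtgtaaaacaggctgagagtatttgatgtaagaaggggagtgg
Tyrp1: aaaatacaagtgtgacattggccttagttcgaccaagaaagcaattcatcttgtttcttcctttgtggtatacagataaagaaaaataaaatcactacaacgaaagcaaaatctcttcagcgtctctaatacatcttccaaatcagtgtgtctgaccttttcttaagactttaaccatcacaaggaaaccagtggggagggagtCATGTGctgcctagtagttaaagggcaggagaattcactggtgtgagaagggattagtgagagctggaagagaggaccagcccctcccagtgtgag
Dct: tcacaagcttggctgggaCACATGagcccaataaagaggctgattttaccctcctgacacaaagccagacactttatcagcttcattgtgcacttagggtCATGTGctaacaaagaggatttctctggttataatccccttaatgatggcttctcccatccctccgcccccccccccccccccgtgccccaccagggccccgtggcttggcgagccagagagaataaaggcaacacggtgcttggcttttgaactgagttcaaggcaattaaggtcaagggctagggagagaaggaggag
Oca2: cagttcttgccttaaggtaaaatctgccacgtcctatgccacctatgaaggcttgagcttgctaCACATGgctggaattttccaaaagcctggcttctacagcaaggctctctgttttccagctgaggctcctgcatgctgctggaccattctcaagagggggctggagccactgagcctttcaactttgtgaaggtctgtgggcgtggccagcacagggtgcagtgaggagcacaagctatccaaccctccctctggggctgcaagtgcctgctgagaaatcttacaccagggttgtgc

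Of the 10 members, 6 had a window in the promoter table, while Pmel, Mlana, Slc45a2 and Gpr143 had none. CATGTG was found on at least 1 strand in all 6, against 15.9% of the 27025 genes with a window. The longer TCATGTG, which contains CATGTG, was found in 5 of the 6 (Tyr, Tyrp1, Dct, Slc24a5 and Trpm1) and in 4.31% of all genes. The match began 21 bases before the start in Tyr and 46 bases before it in Tyrp1, while the match in Oca2 lay on the reverse strand, 186 bases before the start, and outside TCATGTG. Slc24a5 had a match 13 bases before the start on the reverse strand, and Trpm1 had one 141 bases before the first of its starts in the table; both are given with 10 bases on either side. A second Trpm1 window, chr7:64185209-64185508, held a match on the reverse strand, 37 bases after the start and outside TCATGTG.
Slc24a5: ggagactgctCACATGattcagcata
Trpm1: aaatcctcatCATGTGcccaccccaa
A match in these windows is a description of the sequence and not a measured binding site. Whether such matches bear on the levels in these tumours was not tested. CATGTG was chosen because it is known from the promoters of pigment genes, so the shares are no test of enrichment.

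The pigment genes were abundant in most tumours and low in single tumours of either group. Together they took 1.65% to 1.86% of all TPM in control libraries 2 to 5 and 0.217% in control library 1. In the cytokine mRNA tumours they took 1.91% in library 10, 1.60% in library 9, 0.697% in library 6, 0.428% in library 8 and 0.00180% in library 7. Libraries 9 and 10 thus lay near the controls, libraries 6 and 8 lay between these and control library 1 in the summed share, and library 7 had almost none. In bulk tumours, fewer melanoma cells and less RNA of a gene per melanoma cell cannot be told apart.

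**Figure D1:**
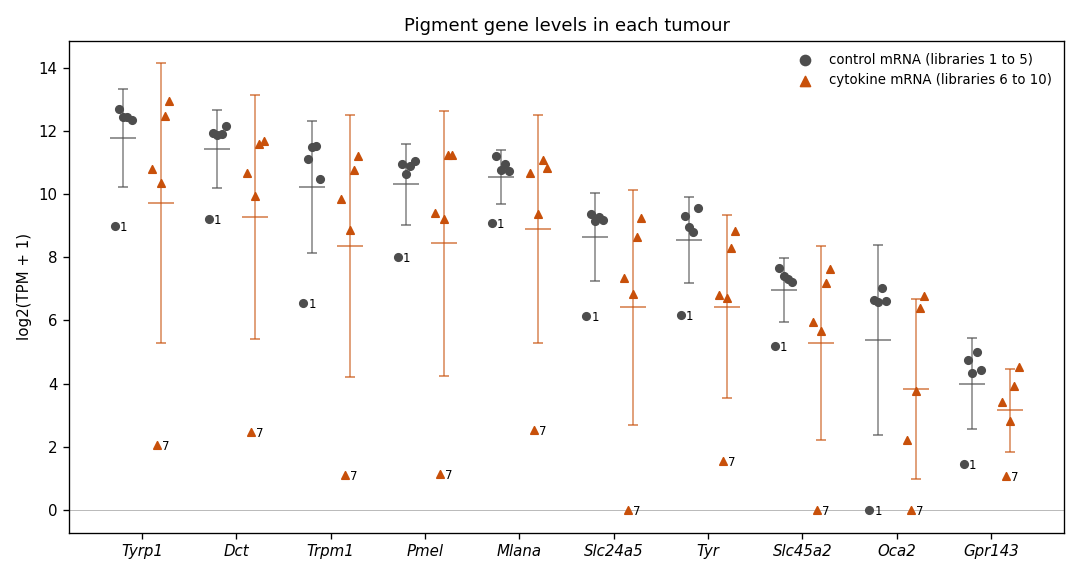
Level of each pigment gene, as log2(TPM + 1), in the 5 control mRNA tumours (grey circles) and the 5 cytokine mRNA tumours (orange triangles), with the group mean and SD as bars; libraries 1 and 7 are numbered. Library 7 has the lowest cytokine mRNA value and library 1 the lowest control value of every gene, while the groups overlap in all 10 genes.

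Library 7 also stood apart in other measures, library 6 in the scatter of ribosomal protein genes, and library 1 in mitochondrial share among the controls. The number of genes with a TPM of at least 1 was 11513 to 12984 per library, and the depth is unknown. Of 1534 odorant, taste and pheromone receptor genes, 279 had a nonzero value in library 7, while 14 to 24 did in the controls and 22 to 43 in libraries 6, 8, 9 and 10. The scatter of 75 ribosomal protein genes around their medians was 2.05 in library 7 and 1.48 in library 6 (SD, log2 scale), against 0.34 to 0.60 in the other 8. Mitochondrial genes took 16.2% of the TPM in library 1 and 22.0% to 27.9% in the other controls, and 4.44% to 19.2% in the cytokine mRNA libraries, with the lowest share in library 7. Among markers of other cells, skeletal muscle genes summed to 624 TPM in library 1 and 328 TPM in library 3, against 7.71 to 10.8 TPM in the other controls. In the cytokine mRNA libraries 6 to 10 they summed to 82.4, 105, 158, 8.87 and 8.49 TPM. The muscle sum was thus high in the 4 tumours with low pigment genes (libraries 1, 6, 7 and 8) and in library 3, whose pigment genes were not low. The part of these differences in the pigment values was not tested. The differences of the members are given with and without libraries 1 and 7.

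Of the 3 melanin enzymes, Tyrp1 and Dct had the highest control medians of the 10 members, and Tyr ranked 7. Tyr, which catalyses the first and rate-limiting step from tyrosine, was at 71.6, 628, 492, 439 and 758 TPM in control libraries 1 to 5 and at 111, 1.93, 103, 316 and 456 TPM in cytokine mRNA libraries 6 to 10. Its mean was 478 ± 259 TPM in control and 198 ± 184 TPM in cytokine mRNA tumours (SD, n = 5 per group). Control library 1 lay below every cytokine mRNA library but library 7, so the groups overlapped. On the log2(TPM + 1) scale the difference was -2.11 ± 1.20 (SE; 95% interval -4.75 to 0.52; limma adjusted p = 0.246).

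Tyrp1, which oxidises a later melanin intermediate in mice, was at 508, 6568, 5515, 5567 and 5137 TPM in the control libraries. In the cytokine mRNA libraries it was at 1769, 3.16, 1303, 5651 and 7910.0 TPM, with library 10 above all controls. Its levels thus spanned the widest range of the 10 genes in the cytokine mRNA group, and the difference of -2.05 ± 1.76 (SE) on the log2 scale had a 95% interval of -5.91 to 1.81 (limma adjusted p = 0.436). Dct, dopachrome tautomerase, was at 593, 3902, 3699, 3798 and 4589 TPM in the control libraries and at 1639, 4.60, 969, 3064 and 3296 TPM in the cytokine mRNA libraries. All 5 cytokine mRNA values of Dct lay below those of control libraries 2 to 5, and only library 7 lay below control library 1. The difference of Dct was -2.14 ± 1.53 (SE; 95% interval -5.48 to 1.20; limma adjusted p = 0.349).

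Of the structural and membrane proteins, Pmel, whose cleaved fragments form the fibrils on which melanin is laid down, was at 257, 1969, 1601, 1897 and 2094 TPM in control and at 674, 1.22, 597, 2416 and 2393 TPM in cytokine mRNA libraries. Libraries 9 and 10 exceeded every control, while libraries 6 and 8 had less than any control other than library 1. Mlana, the melanosome protein also called MART-1, was at 536, 2332, 1739, 1969.7 and 1688 TPM in control and at 1631, 4.79, 661, 2160 and 1796 TPM in cytokine mRNA libraries. In library 6 Mlana was at 93.8% of the control median, the highest of the 10 genes there, against 3.75% for Oca2 and 22.5% to 47.5% for the other 8. Gpr143, a melanosomal receptor mutated in ocular albinism, was the lowest member, at 1.77 TPM in library 1 and 19.0 to 31.3 TPM in the other controls, and at 9.74, 1.12, 6.02, 14.3 and 22.1 TPM in cytokine mRNA libraries. The log2 differences of these 3 genes were -1.86 ± 1.65, -1.64 ± 1.40 and -0.84 ± 0.75 (SE), with limma adjusted p-values of 0.450, 0.430 and 0.455. Exons of Pmel overlap those of Cdk2 and Dgka on the opposite strand in the GENCODE annotation, and those of Slc24a5 overlap Myef2. The libraries were stranded per the labels, but whether the counting used strand is not given in the sources used here, so reads of such pairs may be shared.

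The transporters and the channel were likewise low in single tumours. Oca2, which affects melanosome acidity and is mutated in the pink-eyed dilution mouse, was listed at 0 in library 1 and at 95.4 to 130.0 TPM in the other controls. In the cytokine mRNA libraries it was at 3.68, 0, 12.6, 82.6 and 109 TPM. Oca2 was thus listed at 0 in 1 tumour of each group and near the control level in libraries 9 and 10. Slc24a5, a cation exchanger of the melanosome pathway, was at 70.0, 666, 566, 623 and 583 TPM in control and at 161, 0, 114, 401 and 598 TPM in cytokine mRNA libraries. Slc45a2, a transporter of the melanosome membrane, was at 35.3 TPM in library 1 and 148 to 199 TPM in the other controls, and at 60.6, 0, 50.1, 146 and 195 TPM in cytokine mRNA libraries. Library 7 was the tumour listed at 0 for all 3 transporters.

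Trpm1, a cation channel of melanocytes and retinal bipolar cells, was at 93.1, 2208, 2842, 2961 and 1416 TPM in control and at 907, 1.15, 466, 1726 and 2342 TPM in cytokine mRNA libraries. In library 1 it was at 4.21% of its control median, the lowest of the members after Oca2. The log2 differences were -1.55 ± 1.56 in Oca2, -2.22 ± 1.49 in Slc24a5, -1.67 ± 1.22 in Slc45a2 and -1.88 ± 1.74 in Trpm1 (SE; limma adjusted p of 0.507, 0.319, 0.358 and 0.471). The 95% interval of each included 0 and reached from -4.96 to 1.87 in Oca2 and from -5.48 to 1.04 in Slc24a5.

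**Figure D2:**
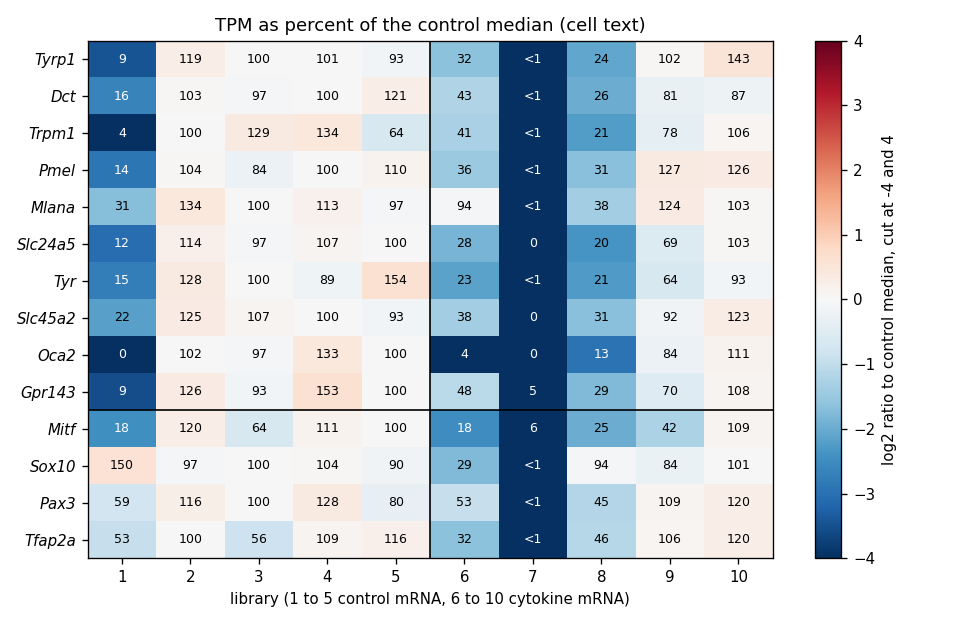
TPM of each pigment gene and of Mitf, Sox10, Pax3 and Tfap2a in each library, as percent of the gene's control median (numbers) and as log2 ratio (colour, cut at -4 and 4). In library 1 all pigment genes are low while Sox10 is at 149.6% of its median, and in library 7 all members and regulators shown are low.

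None of the 10 members passed the limma threshold, an adjusted p under 0.05 over 12497 genes tested, and none had an unadjusted p under 0.05. Across all genes tested, 10.4% passed it, 3.02% as lower and 7.41% as higher in cytokine mRNA tumours, and 30.5% had an unadjusted p under 0.05, 16.1% as lower. All 10 members were lower in the mean of the cytokine mRNA tumours, with a median difference of -1.87 on the log2 scale against -0.18 for all genes tested. In no member did the 5 cytokine mRNA values all lie below the 5 control values, against 3.78% of all genes tested, and in none did they all lie above, against 5.45%. Exact 2-sided permutation tests of the mean log2 difference gave p-values of 0.151 in Tyr to 0.500 in Pmel, where the smallest p that 5 against 5 tumours allow is 0.00794. The members move together, so their common sign is not 10 separate observations.

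The spread between tumours of 1 group was large for these genes. In control tumours the SD on the log2 scale was 0.84 in Mlana to 3.01 in Oca2, and Mlana's lay at percentile 86.9 and that of Oca2 at percentile 99.9 of all genes tested. In cytokine mRNA tumours the SD was 1.32 in Gpr143 and 2.85 to 4.42 in the other 9, which lay at percentile 99.7 or higher. The differences turned on libraries 1 and 7. Without library 7 they were between -0.89 in Tyr and -0.03 in Pmel, and without library 1 they were between -2.89 in Oca2 and -1.47 in Gpr143. Without both, they were -1.94 in Oca2, -1.49 in Tyr, -1.23 in Slc24a5 and -0.42 in Mlana, with limma adjusted p-values from 0.0905 in Tyr to 0.487 in Mlana. Without libraries 6 and 7 the sign turned in Tyrp1, Pmel, Oca2 and Trpm1, to values of 0.15, 0.26, 0.26 and 0.04.

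**Figure D3:**
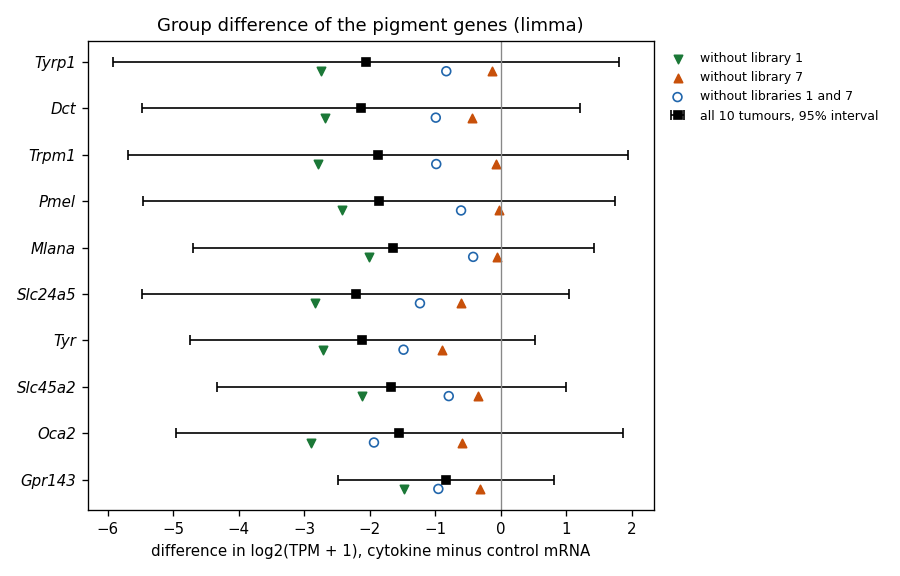
Difference in log2(TPM + 1), cytokine minus control mRNA, of each pigment gene in limma with its 95% interval over 10 tumours (black squares), and the difference without library 1, without library 7 and without both (coloured symbols). Each interval includes 0, and the differences lie closest to 0 without library 7.

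The order of the levels was Tyrp1, Dct, Trpm1, Pmel, Mlana, Slc24a5, Tyr, Slc45a2, Oca2 and Gpr143 by control median, from 5515 TPM down to 20.5 TPM. Some neighbours kept this order in every tumour: Dct was above Trpm1, Mlana above Slc24a5 and Tyr above Slc45a2 in all 10. Others did not: Trpm1 was above Pmel in 4 of 10 tumours, Pmel above Mlana in 3, and Slc24a5 above Tyr in 7. The make-up of the summed pigment TPM also shifted. Mlana made up 10.2% to 12.5% of it in control libraries 2 to 5 but 24.7% in library 1, 23.4% in library 6 and 15.4% in library 8, against 13.5% in library 9 and 9.40% in library 10. Oca2 made up 0.535% to 0.740% in control libraries 2 to 5 and 0.0528% in library 6. In library 7 the summed level of 18.0 TPM was too low to read a make-up from.

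The same tumours differed in how many other genes were low. In library 1, all 10 members were under 50% of their control median, against 4.41% of all genes tested. In library 8 all 10 were, against 11.7% of all genes, and in library 6 it was 9 of 10, against 26.6%. Library 7 had all 10 members under 50%, against 37.5% of all genes, and the median member there was at 0.0609% of its control median while the median gene was at 71.1%. None of the members was under 50% in libraries 9 and 10, where 10.4% and 5.13% of all genes were.

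Mitf and Sox10, the transcription factors upstream of the pigment genes, did not follow each other across the tumours. Sox10 was at 532 TPM in library 1, the highest of all, at 319.6 to 369 TPM in the other controls, and at 104, 2.18, 334, 298 and 358 TPM in libraries 6 to 10. Mitf was at 71.7 TPM in library 1, at 251 to 471 TPM in the other controls, and at 69.5, 24.0, 99.2, 164 and 425 TPM in libraries 6 to 10. Library 1 thus combined the highest Sox10 with low Mitf and low pigment genes, and library 8 had Sox10 at 94.0% and Mitf at 25.4% of the control median. In library 6 both were low, and in library 7 Sox10 was at 0.614% and Mitf at 6.13%. Neither gene passed the limma threshold: the log2 difference was -1.38 ± 0.72 (SE) in Mitf (adjusted p = 0.211) and -1.87 ± 1.10 in Sox10 (adjusted p = 0.260).

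The summed pigment TPM per TPM of Sox10, a ratio chosen after the values were seen, was 47.1 to 54.1 in control libraries 2 to 5 and 66.9, 53.7 and 53.3 in libraries 6, 9 and 10. It was 4.07 in library 1, 12.8 in library 8 and 8.23 in library 7. The ratio of library 6 thus lay above the range of control libraries 2 to 5, while those of libraries 1, 7 and 8 lay below it. In library 7 it was formed from only 18.0 TPM of pigment genes and 2.18 TPM of Sox10, so it is not read further. Per TPM of Mitf the ratio was 30.2 in library 1, 39.5 to 66.7 in the other controls, 43.2 to 100.2 in libraries 6, 8, 9 and 10, and 0.749 in library 7. Library 7 was the tumour with few pigment transcripts for its Mitf level, which other cell types also express.

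**Figure D4:**
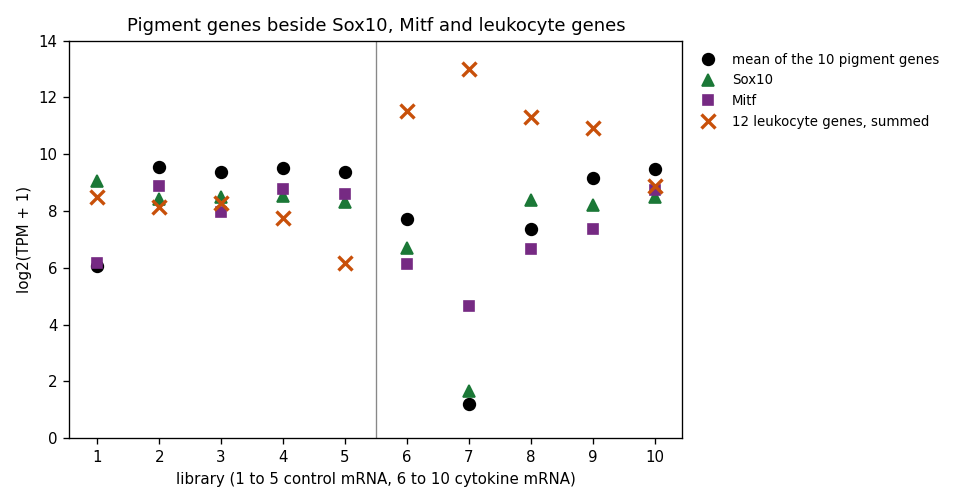
The mean log2(TPM + 1) of the 10 pigment genes (black circles), Sox10 (green triangles), Mitf (purple squares) and the summed TPM of 12 leukocyte genes, as log2(sum + 1) (orange crosses), in each library. Library 1 has high Sox10 with low Mitf and pigment genes and a leukocyte sum at the upper end of the control range. Library 7 has the highest leukocyte sum.

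Leukocyte genes moved with part of this pattern. The sum of 12 leukocyte markers was 71.4 to 358 TPM in control libraries and 2925, 8117, 2519, 1964 and 472 TPM in libraries 6 to 10. Of these markers, 10 of the 10 tested rose, against 7.41% of all genes tested. Ptprc, the pan-leukocyte phosphatase CD45, rose from 19.6 ± 7.07 to 339 ± 313 TPM (SD, n = 5; 211 TPM without library 7), and Cd3e and Cd8a of T cells rose by 5.05 ± 0.90 and 4.26 ± 0.82 (SE) on the log2 scale. None of the 10 passed without libraries 6 and 7, and the calls of 6 of the 10 were lost without at least 1 single library. Library 1 had low pigment genes with a leukocyte sum of 358 TPM, the upper end of the control range. Library 9 kept its pigment genes with a sum of 1964 TPM. Of 10 proliferation genes, 6 fell, against 3.02% of all genes tested, and none rose. They summed to 1180.4 TPM in library 1, within the range of 1046 to 1295 TPM in the other controls. In libraries 6 to 9 they summed to 168 to 362 TPM and in library 10 to 1104 TPM. Cdk1, Plk1 and Ube2c, which drive mitosis, fell by 2.04 ± 0.46, 1.86 ± 0.40 and 2.13 ± 0.41 (SE) on the log2 scale; Cdk1 lost its call without any 1 of libraries 4, 5, 6 and 9, Plk1 without library 6, and all 6 without libraries 6 and 7.

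Apart from the muscle sum given above, markers of other cells were compared between the groups. None of the 13 keratinocyte and hair follicle genes passed the filter on low values, and they summed to 0.377 to 17.0 TPM, highest in library 7; Krt71 and Krt25 were at 0 in all libraries. None of 7 endothelial, 6 muscle, 2 adipocyte and 3 erythroid genes tested passed. In these lists the most abundant genes were Cdh5 and Pecam1 at 38.1 ± 7.91 and 22.9 ± 5.68 TPM in control and 29.1 ± 6.05 and 35.4 ± 20.2 TPM in cytokine mRNA tumours (SD, n = 5). Tnnt3 and Mylpf of muscle, Fabp4 and Adipoq of adipocytes and Hbb-bt and Alas2 of erythroid cells had log2 differences of 0.27, -0.37, -1.01, -1.23, 1.57 and 0.62. Of 9 fibroblast and pericyte genes only the pericyte marker Rgs5 was called, as lower, though the median difference of the list was 0.49. Of 3 Schwann cell genes only the myelin gene Mbp was called, as lower, though the list median was 0.47. Both medians lay above the -0.18 of all genes tested. The Rgs5 call was lost without any 1 of 6 of the 10 libraries, and the Mbp call without any 1 of 7. Actb and Gapdh, the most abundant of 12 reference genes with none called, differed by -0.19 ± 0.34 and -1.51 ± 0.71 (SE). Single tumours were low in reference genes too. Of the 12, 4 were under 50% of their control median in library 6 (26.6% of all genes) and 6 in library 7 (37.5%). It was 3 in library 8 (11.7%), 2 in library 9 (10.4%) and 0 in library 1 (4.41%). Gapdh was at 23.0% in library 6 and 4.99% in library 7.

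Genes that carry melanosomes or build them were compared next. Of 30 tested genes of melanosome biogenesis and transport, 1 rose and none fell, against 7.41% and 3.02% of all genes tested. The median difference was -0.17 against -0.18 for all genes tested. The 1 that rose was Tpcn2, a two-pore channel of lysosomes and melanosomes, from 5.57 ± 1.46 to 17.8 ± 6.48 TPM (SD, n = 5; log2 difference 1.48 ± 0.30 (SE), adjusted p = 0.0160 in limma). Tpcn2 did not pass without libraries 6 and 7 together, when none of the list passed. In library 7, 12 of the 30 genes were under 50% of their control median, against 37.5% of all genes, in library 1 it was 6 of 30, against 4.41%, in library 6 it was 8 of 30, against 26.6%, and in library 8 it was 6 of 30, against 11.7%. In libraries 9 and 10 it was 0 of 30.

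Single genes of this list, named after their values were seen, went with the pigment genes in library 7. Rab38, a GTPase that delivers Tyrp1 to the melanosome, was at 2.96 TPM in library 7 and 66.4 TPM in library 1, against 123 to 248 TPM in the other 8. Mlph, which with Rab27a and Myo5a tethers melanosomes to actin, was at 0.283 TPM in library 7 and 36.5 to 162 TPM elsewhere. Rab27a itself was at 38.1 TPM in library 1, 113 to 143 TPM in the other controls, and 47.1, 19.2, 48.4, 105 and 106 TPM in libraries 6 to 10. Rab32, which acts beside Rab38 and is also expressed by leukocytes, ran the other way in library 7, at 117 TPM. In library 1 it was low like the pigment genes, at 2.58 TPM, against 15.3 to 51.9 TPM in the other 8. Limma called none of these 4 (adjusted p of 0.545, 0.426, 0.247 and 0.118).

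The 17 tested transcription factors and signalling genes of pigment cells had a median difference of -0.27. Against 7.41% of all genes tested called as higher and 3.02% as lower, 2 rose and none fell. They were Irf4, a pigmentation factor that is also made by lymphocytes, from 0.745 ± 0.372 to 6.24 ± 3.50 TPM, and Kitl, the ligand of the receptor Kit, from 3.44 ± 1.06 to 9.83 ± 3.42 TPM (SD, n = 5). The Kitl call was lost without any 1 of libraries 4, 5 and 6, and both calls were lost without libraries 6 and 7 together. Pax3 and Tfap2a, named after their values were seen, were at 0.468 and 1.09 TPM in library 7 and at 75.7 to 218 and 64.6 to 241 TPM in the other 9. Lef1, a Wnt effector likewise named, was at 115 TPM in library 1, 40.3, 67.1 and 70.8 TPM in libraries 6, 7 and 8, and 4.05 to 25.2 TPM in the other 6.

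In a list of other Mitf targets and melanocyte genes, the 27 tested had a median difference of -0.70 (0.00 without library 7). Against 7.41% of all genes tested called as higher and 3.02% as lower, 3 rose and none fell. They were Bcl2a1b and Bcl2a1a, near-identical apoptosis inhibitors also expressed by leukocytes, and Slc7a11, a cystine transporter that affects pheomelanin. Bcl2a1b went from 2.50 ± 1.499 to 26.1 ± 29.6 TPM (SD, n = 5; 13.2 TPM without library 7), Bcl2a1a from 1.07 ± 1.003 to 8.46 ± 7.36 TPM (5.42 TPM without library 7) and Slc7a11 from 6.13 ± 2.65 to 17.3 ± 7.99 TPM. These calls were lost without 6, 9 and 8 single libraries of 10, and that of Slc7a11 also after rescaling without the 50 most abundant or the mitochondrial genes. Gpnmb, a glycoprotein close to Pmel that macrophages also express, was at 2004 TPM in library 1 and 1435 TPM in library 7, against 6866 to 15717 TPM in the other 8. Met, the hepatocyte growth factor receptor, was at 9.56 TPM in library 1, 566 to 738 TPM in the other controls, and 180.2, 21.7, 81.0, 649 and 690.0 TPM in libraries 6 to 10. Cdk2, whose exons overlap Pmel, was at 101 TPM in library 1, 310 to 377 TPM in the other controls, and 67.7, 12.2, 108, 269 and 433 TPM in libraries 6 to 10. By contrast, St3gal6 and S100b were low in library 7 (43.2 and 1.77 TPM) but not in library 1 (1095 and 102 TPM). These 5 genes were named after their values were seen.

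Some other genes of the lists were high in library 1, where the pigment genes were low. Fxyd3, an ion pump regulator, was at 439.7 TPM in library 1, 196 TPM in library 8 and 93.3 TPM in library 3, against 4.60 to 46.5 TPM in the other 7. Erbb3, a neuregulin receptor of the neural crest lineage, was at 102 TPM in library 1 and 35.4 TPM in library 8, against 1.78 to 29.8 TPM in the rest. Ctgf, a matrix protein gene and target of YAP, was at 1278 TPM in library 1, 647 TPM in library 8 and 412 TPM in library 3, against 12.5 to 188 TPM in the others. These 3 genes were chosen after their values were seen. In a list of 15 tested genes of dedifferentiated melanoma, the median difference was 0.55, against -0.18 for all genes tested. Of the 15, 8 had an unadjusted limma p under 0.05 in either direction, against 30.5% of all genes tested. Against 7.41% of all genes tested called as higher and 3.02% as lower, 2 rose and 1 fell. Fosl1 and Jun of the AP-1 complex rose by 1.65 ± 0.44 and 0.68 ± 0.18 (SE) on the log2 scale. The water channel Aqp1 fell by 1.40 ± 0.37. The calls of Fosl1 and Jun were lost without any 1 of 8 of the 10 libraries and that of Aqp1 without any 1 of 9, and Jun also lost its call after rescaling without mitochondrial genes.

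The genes whose profiles over the 10 tumours lay nearest to the mean of the members were Ankfn1, Chsy3, Tspan10, Cited1, Glrb, Ptgds, Syt4, Ppargc1a, Pla2g2e and Myo7a. Likeness was the root mean square difference between centred log2(TPM + 1) profiles, which was 0.55 for Ankfn1 and 0.79 for Myo7a, against a median of 2.45 over 12033 genes. The members' own distances from their mean were 0.32 in Slc24a5 to 1.42 in Gpr143. Tspan10, a tetraspanin, was at 31.0 TPM in library 1, 356 to 673 TPM in the other controls, and 46.8, 0, 43.3, 242 and 396 TPM in libraries 6 to 10. Cited1, a transcriptional coregulator, was at 25.7 and 0.561 TPM in libraries 1 and 7, and Ppargc1a, a coactivator of mitochondrial genes, was at 11.3 and 0.217 TPM in these 2. Ptgds, which makes prostaglandin D2, was at 217 and 0.365 TPM in libraries 1 and 7, and Pla2g2e, a secreted phospholipase, was at 7.88 and 0 TPM there and at 503 TPM in library 9, its highest value. Limma called none of the 10 (adjusted p of 0.234 in Tspan10 to 0.843 in Pla2g2e). The 10 genes were chosen for their likeness to members that were not called. The lack of calls and the low values in libraries 1 and 7 therefore follow from that choice.

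**Figure D5:**
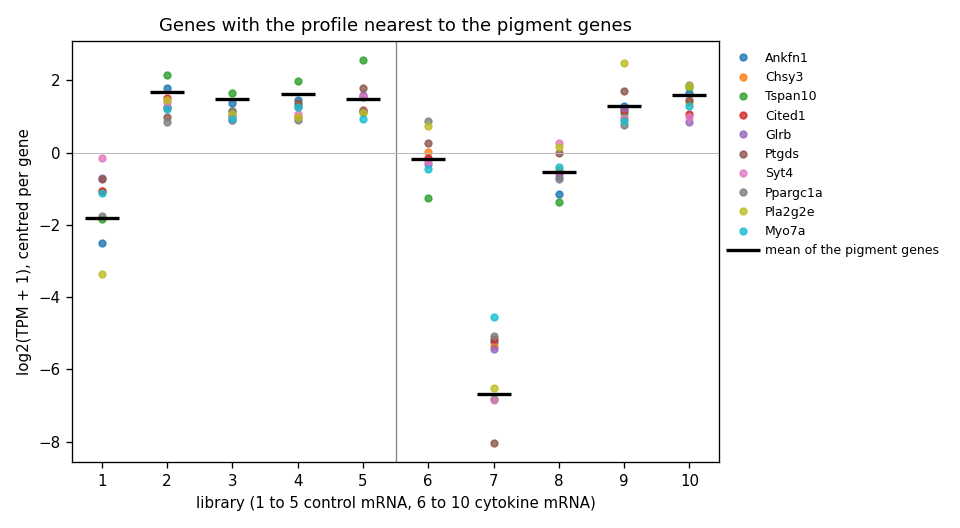
Centred log2(TPM + 1) of the 10 non-member genes whose profiles lay nearest to the pigment genes (coloured points) and the mean of the 10 pigment genes (black bars) in each library. All 11 profiles are lowest in library 7, and all lie above their own mean in control libraries 2 to 5 and in libraries 9 and 10. The genes were chosen for this likeness, so it is not a separate result.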

How the data were processed

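RNA from 10 tumours was sequenced, and the authors deposited 1 table of TPM values for 22329 genes, in which every library sums to 1000000 and 4824 genes are at 0 throughout. Reads were aligned with STAR, per the submitters' processing notes, which name the build GRCh38, a human build, for these mouse samples; how genes were annotated and counted is not given in the sources used here. Since depth is lost in TPM, no counting error can be given, and the share of 1 gene depends on all others.

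The differences were computed on log2(TPM + 1), which understates the change of low genes, with limma 3.58.1 in R 4.3.3 (trended prior) on all 10 libraries. Tests covered the 12497 genes that reached a TPM of 1 in 5 or more libraries, and p-values were adjusted by Benjamini-Hochberg over all of them, with a threshold of 0.05. All 10 members passed this filter. Exact permutation tests used all 252 splits. The fit was tested on simulated data. Libraries are separate samples per the labels, which do not say more of their source. If each is a separate tumour, as read here, p-values measure the spread between these tumours.

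The members and lists were chosen with earlier results of these data known. Named genes were the members, Mitf and Sox10, up to 3 called genes with the largest change in each list, or, in a list without calls, its 2 genes of highest mean TPM, and the 10 nearest profiles; other genes are marked as named after their values were seen. Mc1r, Asip, Acta1 and Mela were not analysed here. Other pseudocounts, filters, scalings, weights and left-out libraries were tried.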

Additional observations from a re-analysis of the deposited data

Results flagged for a closer look

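In 40 of 100 groups of 5 libraries examined, 1 library lay far from the other 4 by Dixon's criterion (gap over range above 0.710); chance alone flags about 1 in 20 groups, and genes that move together are not separate groups, so the total is not read against that rate. Library 1 accounted for 19 and library 7 for 16. All values here are log2(TPM + 1).

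Control library 1 was far below the other controls in all 10 pigment genes, at 6.18 in Tyr, 8.99 in Tyrp1, 9.22 in Dct, 8.01 in Pmel, 9.07 in Mlana, 1.47 in Gpr143, 5.18 in Slc45a2, 0 in Oca2, 6.15 in Slc24a5 and 6.56 in Trpm1, and at 6.08 in their mean. Among the genes chosen for profiles like those of the members, whose low values here follow from that choice, it was also far below the other controls in Ankfn1 (3.18), Chsy3 (5.19), Tspan10 (5.00), Cited1 (4.74), Ppargc1a (3.62), Pla2g2e (3.15) and Myo7a (5.63). Library 1 was far above the other controls in Sox10 (9.06).

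Cytokine mRNA library 7 was far below its group in 7 pigment genes, at 2.06 in Tyrp1, 2.49 in Dct, 1.15 in Pmel, 2.53 in Mlana, 0 in Slc45a2, 0 in Slc24a5 and 1.11 in Trpm1, and at 1.20 in the members' mean. The same held for Sox10 (1.67), while Jun was far above its group (5.70). Of the genes chosen for their likeness to the members, it held for Chsy3 (0.89), Cited1 (0.64), Glrb (1.37), Ptgds (0.45), Syt4 (1.01) and Pla2g2e (0).

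Elsewhere, Bcl2a1b was at 0 in control library 3, Gapdh was high (12.13) and Ptprc low (3.11) in control library 5, and Plk1 (5.89) and Ube2c (6.99) were high in cytokine mRNA library 10.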

How the results depend on the processing

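None of the 10 pigment genes was called by limma in any of 23 other settings, with a lowest adjusted p of 0.0905 (Tyr without libraries 1 and 7). Their differences stayed negative except without libraries 6 and 7, where Tyrp1 was at 0.15, Pmel at 0.26, Oca2 at 0.26 and Trpm1 at 0.044; the cause was not tested. The number of genes called among all tested was 1304, and it was 846 with no filter on low values, 2769 with library quality weights, 20 without libraries 6 and 7, 681 without libraries 1 and 7, and 367 (without library 6) to 3238 (without library 10) when 1 library was left out. The exact permutation test with adjustment called 0, with 3785 at an unadjusted p under 0.05. Rescaling without mitochondrial genes gave 855 higher and 909 lower, against 926 and 378 as deposited, and moved the median of all genes from -0.18 to -0.36 and that of the members from -1.87 to -2.08. No paired analysis was possible because the groups share no replicate numbers. Depth is unknown, so values near 0 cannot be given a detection limit.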
